A study of Neurospora crassa with 12 samples.

Results

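The transcripts of 6 genes that let *Neurospora crassa* live on acetate and build sugar from it were followed in all 12 RNA-Seq libraries of the series. The genes were taken by their locus IDs and not by their values: *acu-5* (NCU06836), *acu-3* (NCU04230), *acu-9* (NCU10007), *acu-6* (NCU09873), *fbp-1* (NCU04797) and *acu-15* (NCU06656). They are 6 of the 9730 genes in the count tables, and all 6 were among the 7746 genes that passed the filter on low counts. The libraries came from the wild type (74A, St.L.74-OR23-1VA, *mat A*) and from a *mus-52*::*hyg* strain (*mat a*), in which a gene of non-homologous end joining is replaced by a hygromycin resistance marker. Conidia of 6 days grew for 5 h at 30 °C in shaken liquid medium with 10 µM phosphate (low-Pi) or 10 mM phosphate (high-Pi), fed on sucrose at 44 mM and held at pH 5.4 by 50 mM sodium citrate. Each of the 4 groups had 3 biological replicates, numbered I to III. Acetate is not named among the additions to any medium, and each strain is a single isolate.

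In fungi growing on acetate, acetyl-CoA synthetase (*acu-5*) first joins acetate to coenzyme A. Isocitrate lyase (*acu-3*) and malate synthase (*acu-9*) then form the glyoxylate cycle, which bypasses the steps of the tricarboxylic acid cycle that release carbon dioxide, so that acetate carbon can be kept as malate and oxaloacetate. Phosphoenolpyruvate (PEP) carboxykinase (*acu-6*) turns oxaloacetate into PEP, the first step of gluconeogenesis, and fructose bisphosphatase (*fbp-1*) carries out a late step that glycolysis cannot run backwards. The *acu* genes were found as *N. crassa* mutants that could not use acetate, and *acu-15* encodes the counterpart of the *Aspergillus* activator FacB. In filamentous fungi the glyoxylate enzymes lie in microbodies called glyoxysomes, and sugars repress these pathways.

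Between 17574263 and 56152963 reads were counted per library, and levels are given as CPM (counts scaled to library size) with edgeR's TMM factors. Replicates I of the wild type stood apart: the correlation of log2 CPM with the other replicates of their group was 0.931 to 0.951 in these 4 pairs and 0.988 to 0.993 in the 8 other replicate pairs. In low-Pi, replicate I of the wild type was closer to every library of the other strain (0.950 to 0.971) than to its own group (0.931 and 0.933). In high-Pi, replicate I was closer to its own group (0.941 and 0.951) than to the other strain (0.909 to 0.931). The replicates I of the 2 media correlated at 0.937, and the cause was not tested. *mus-52* itself (NCU00077) was counted in low-Pi at 19.5 to 38.9 CPM in the wild type and 21.9 to 27.1 CPM in the other strain. In high-Pi it had 23.99 to 75.9 CPM in the wild type and 21.0 to 23.95 CPM in the other strain, which just did not overlap. A loss of its counts was thus not visible, and the libraries of the other strain are called the libraries labelled *mus-52*. The study's methods state that the knockout was checked by qRT-PCR, which was not analysed here. Every direction between strains rests on that label. Of the *mat A* genes, NCU01958 had 0 counts in all libraries, while NCU01959 and NCU01960 had 0 in the 6 libraries labelled *mus-52* and 0 to 9 in the wild type. The strains differ in mating type as well as at *mus-52*, and these cannot be told apart. Summed over 4 conidial genes (*con-6*, *con-8*, *con-10* and *eas*), the level was 8.32 to 11.7 CPM in the wild type and 13.8 to 43.7 CPM in the libraries labelled *mus-52*, with no gene at 0. *con-6* (0.534 to 5.04 against 2.72 to 19.99 CPM) and *con-10* (0.962 to 3.9998 against 3.49 to 18.1 CPM) made up most of this difference, *eas* overlapped more (2.36 to 5.16 against 3.24 to 7.81 CPM), and *con-8* ran the other way (0.785 to 3.05 against 0.369 to 1.14 CPM). The part of conidial material in the strain differences below was not tested. In whole cultures, fewer cells of a type and less RNA per cell cannot be told apart.

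*acu-5*, at the entry of acetate into metabolism, lies on chromosome II of the NC12 assembly (1822777 to 1826393). The wild type had 720.0, 1104 and 1014 CPM (replicates I, II and III, as for the values that follow) in low-Pi, and in high-Pi 387, 815 and 837 CPM. The libraries labelled *mus-52* had 337, 318 and 326 CPM with low-Pi and 439, 423 and 383 CPM with high-Pi. The strains were apart in low-Pi, but in high-Pi replicate I of the wild type fell among the values of the libraries labelled *mus-52*. The group means were, for low-Pi and then high-Pi, 946 ± 201 and 679.6 ± 254 CPM in the wild type, and 327 ± 9.39 and 415 ± 29.0 CPM in the libraries labelled *mus-52* (SD, n = 3).

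*acu-3*, the isocitrate lyase gene, lies on chromosome V (5289251 to 5292173). The wild type had 903, 2441 and 2352 CPM with low-Pi and 637, 2075 and 2404 CPM with high-Pi. The libraries labelled *mus-52* had 662, 502 and 459 CPM with low-Pi and 520.3, 351 and 361 CPM with high-Pi. Replicate I was the lowest of its group in the wild type and the highest of its group in the libraries labelled *mus-52*, and still the strains did not overlap in either medium. The means were 1899 ± 864 and 1705 ± 940.1 CPM in the wild type and 541 ± 107 and 411 ± 94.9 CPM in the libraries labelled *mus-52* (SD, n = 3).

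*acu-9*, which encodes malate synthase, lies on chromosome I (710761 to 713665) and had low counts. Its counts in the wild type were 95, 187 and 459 with low-Pi and 231, 108 and 170 with high-Pi, or 4.39, 9.99 and 20.6 CPM and 5.40, 6.56 and 8.77 CPM. With the label *mus-52* the counts were 100, 50 and 30 for low-Pi and 166, 42 and 90 for high-Pi, or 2.51, 1.93 and 1.67 CPM and 2.96, 1.72 and 2.45 CPM. All libraries of the wild type were above all those labelled *mus-52* in the same medium. The gene has 2 annotated transcripts, and in these tables the 898 genes with more than 1 transcript had a median total of 34 counts over the 12 libraries, against 7468 for the 8831 genes with 1 transcript. The low level of *acu-9* is therefore uncertain. It is printed below beside the other genes, but weight is put only on its comparison between libraries.

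*acu-6*, the PEP carboxykinase gene, lies on chromosome VI (1824832 to 1828327). Its levels in low-Pi of the wild type were 804, 837 and 833 CPM, close to one another, and those in high-Pi were 447, 1009 and 1058 CPM. The libraries labelled *mus-52* had 134, 146 and 106 CPM with low-Pi and 178, 161 and 121 CPM with high-Pi. No library of the wild type came near this range, replicate I of high-Pi included. The means were 825 ± 17.9 and 838 ± 339.5 CPM in the wild type and 128 ± 20.6 and 154 ± 29.4 CPM in the libraries labelled *mus-52* (SD, n = 3).

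*fbp-1*, the fructose bisphosphatase gene, lies on the same chromosome (854430 to 856333) and followed another pattern. Its levels in the wild type were 19.96, 31.3 and 29.9 CPM with low-Pi and 87.1, 27.3 and 23.0 CPM with high-Pi, against 24.1, 23.2 and 25.3 CPM and 19.2, 18.5 and 16.5 CPM in the libraries labelled *mus-52*. Replicate I of the wild type in high-Pi was the highest of all 12 libraries, where the other 5 genes were lowest in that group. The strains overlapped in low-Pi and were apart in high-Pi.

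*acu-15*, the regulator gene, lies on chromosome V (4145313 to 4149139). The wild type had 432, 896 and 922 CPM with low-Pi and 167, 813 and 739.8 CPM with high-Pi. The libraries labelled *mus-52* had 102, 89.1 and 90.3 CPM with low-Pi and 87.1, 72.7 and 98.4 CPM with high-Pi. The lowest library of the wild type was above the highest labelled *mus-52*. The means were 750.3 ± 276 and 573 ± 354 CPM in the wild type and 93.9 ± 7.28 and 86.1 ± 12.9 CPM in the libraries labelled *mus-52* (SD, n = 3).

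**Figure D1:**
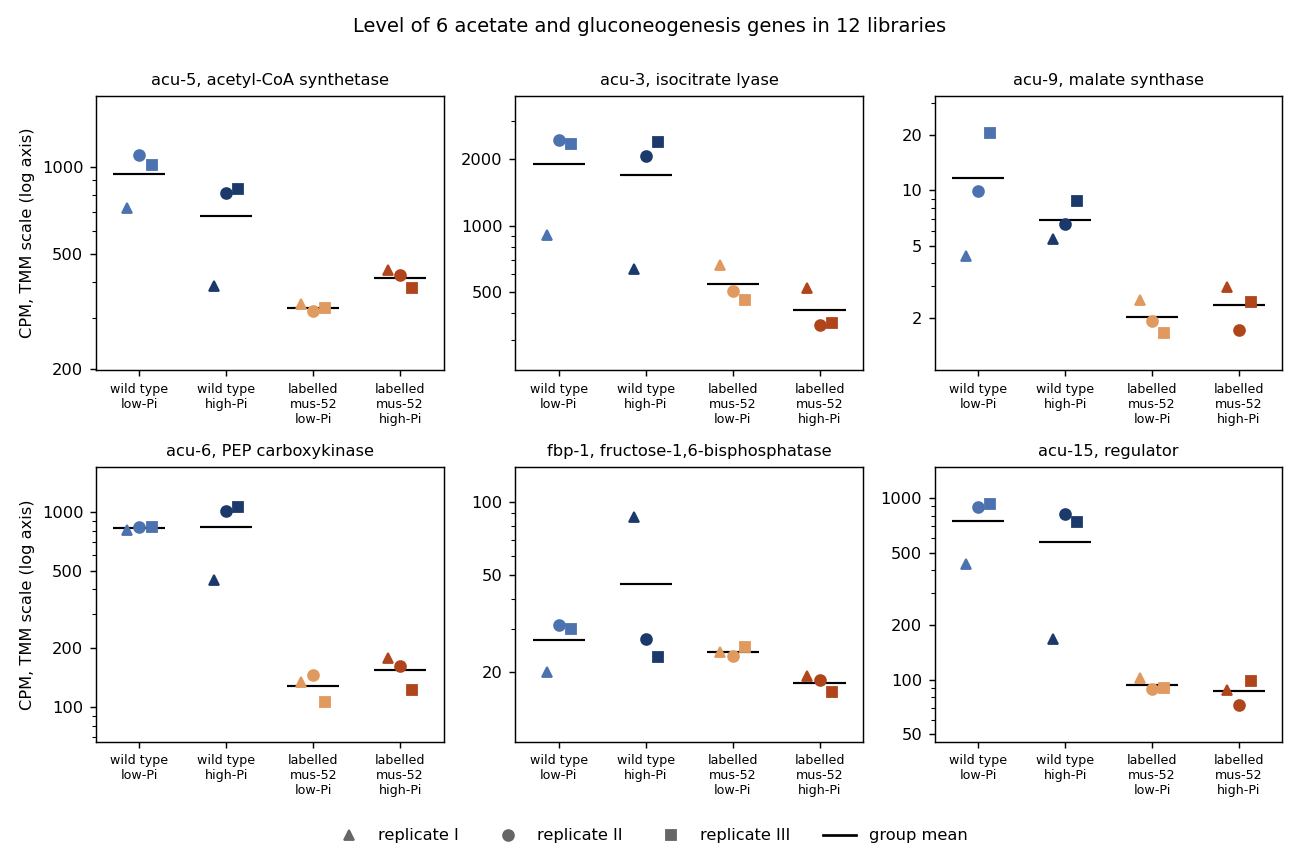
The level of each gene in CPM on the TMM scale (log axis) is plotted for the 4 groups, with a symbol for each replicate and a line at the group mean (n = 3). In 5 panels the libraries labelled *mus-52* lie below most or all of the wild type, while *fbp-1* stays between 16.5 and 31.3 CPM except for replicate I of the wild type in high-Pi, at 87.1 CPM.

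To set the genes beside one another, CPM were divided by the length of the gene in kilobases. In low-Pi of the wild type, *acu-3* led with 649.6 ± 295 CPM per kb (SD, n = 3) and stood at percentile 98.2 of the genes tested. *acu-5* (262 ± 55.6), *acu-6* (236 ± 5.12) and *acu-15* (196 ± 72.01 CPM per kb) came next and did not differ from one another beyond their spread. *fbp-1* had 14.2 ± 3.26 CPM per kb, near the middle of the genes tested at percentile 54.9. Transcripts of acetate activation, isocitrate lyase, PEP carboxykinase and the regulator thus stood at percentiles 94.7 to 98.2 in wild-type germlings in the low-Pi sucrose medium. In high-Pi of the wild type they stood at percentiles 93.5 (*acu-15*) to 98.1 (*acu-3*). The uncertain level of *acu-9* in low-Pi (4.02 ± 2.84 CPM per kb) stood at percentile 31.8.

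The low-Pi libraries labelled *mus-52* kept the same order of means, the uncertain *acu-9* aside, but the genes were unequally lower. *acu-3* had 185 ± 36.6 CPM per kb and kept percentile 95.3, and *acu-5* had 90.4 ± 2.60 CPM per kb at percentile 90.8. *acu-6* went from percentile 95.6 in the wild type to 78.2, and *acu-15* from 94.7 to 69.0. *fbp-1* stayed near the middle, at percentile 51.3.

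In low-Pi, 5 of the 6 genes were lower in the libraries labelled *mus-52* than in the wild type past both thresholds (a Benjamini-Hochberg adjusted p no higher than 0.05 over all genes tested, by the quasi-likelihood test of edgeR, and a change no smaller than 1.5 on the log2 scale). Of all genes tested, 7.51% were lower past both thresholds. *acu-15*, the regulator, fell by 3.00 on the log2 scale, or 7.99-fold (SE 0.505, adjusted p = 0.00241, edgeR). *acu-6*, which opens gluconeogenesis, was 6.42-fold lower (log2 fold change −2.68, SE 0.311, adjusted p = 0.000396, edgeR). The glyoxylate cycle genes *acu-9* and *acu-3* had log2 fold changes of −2.51 and −1.81 (SE 0.482 and 0.485, adjusted p = 0.00415 and 0.0155, edgeR), and *acu-5* had −1.53 (SE 0.280, adjusted p = 0.00339, edgeR).

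*fbp-1* did not pass in low-Pi, with a log2 fold change of −0.16 (95% interval −1.07 to 0.75, adjusted p = 0.769, edgeR). The median over the 6 genes was −2.16, beside 0.07 over all genes tested. The groups did not overlap for the 5 called genes, as for 54.8% of all genes. With both replicates I of the wild type left out, a setting chosen after seeing the data, the same 5 genes were called. Replicate I was the lowest wild-type library for each of them in low-Pi. Leaving it out therefore raises the wild-type mean, and these calls add no independent support. In that setting 11.3% of all genes tested were lower past both thresholds and 35.3% by adjusted p alone. The log2 fold changes of the 5 genes lay between −1.77 (*acu-5*) and −3.35 (*acu-15*), while *fbp-1* came to −0.41 (adjusted p = 0.00625, edgeR). The calls of *acu-3* and *acu-5* depended on single libraries: without replicate II or III of the wild type *acu-3* had −1.59 and −1.63 (adjusted p = 0.0558 and 0.0528, edgeR) and *acu-5* had −1.41 and −1.48, and *acu-3* also missed the threshold without replicate II or III labelled *mus-52* (−1.83 and −1.77, adjusted p = 0.0551 and 0.0572, edgeR).

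In high-Pi, 4 of the 6 genes were lower in the libraries labelled *mus-52* past both thresholds, where 11.7% of all genes tested were. *acu-15* was again the gene with the largest change of the 6, 6.66-fold lower (log2 fold change −2.73, SE 0.499, adjusted p = 0.00224, edgeR). *acu-6* was 5.46-fold lower (−2.45, SE 0.308, adjusted p = 0.000292, edgeR) and *acu-3* 4.15-fold lower (−2.05, SE 0.489, adjusted p = 0.0069, edgeR). *acu-9* just passed the fold threshold, at −1.52 (SE 0.465, adjusted p = 0.0194, edgeR). Its call was lost without a filter on low counts (−1.498, adjusted p = 0.0202, edgeR), without replicate III of the wild type (−1.30, adjusted p = 0.0718, edgeR) and without replicate II or III labelled *mus-52* (−1.34 and −1.53, adjusted p = 0.0766 and 0.0581, edgeR).

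The other 2 genes did not pass both thresholds in high-Pi. *acu-5* had a log2 fold change of −0.71 (95% interval −1.31 to −0.11) and an adjusted p of 0.0503 (edgeR). *fbp-1* had −1.35 (SE 0.420, adjusted p = 0.0211, edgeR), so that 5 genes were lower by adjusted p alone, against 25.3% of all genes tested. That value of *fbp-1* rested on replicate I of the wild type, without which it was −0.47, and it passed both thresholds without replicate II or III of the wild type (−1.58 and −1.63). The median over the 6 genes was −1.79, beside −0.02 over all genes, and 5 genes did not overlap between the strains, as 60.5% of all genes did not.

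With both replicates I of the wild type left out, chosen after seeing the data, the same 4 genes were called in high-Pi. Replicate I was the lowest wild-type library for them and for *acu-5* in high-Pi, so this setting adds no independent support. The shares of all genes tested that were lower in that setting were 13.4% past both thresholds and 35.9% by adjusted p alone. *acu-5* then had −1.03 (adjusted p = 1.22e-07, edgeR), and *fbp-1* had −0.51 (adjusted p = 0.00139, edgeR). *acu-6* and *acu-15*, the PEP carboxykinase and the regulator, were called in both media under all alternatives run. The low-Pi and high-Pi comparisons take their fold changes from separate libraries, but 1 fit of all 12 libraries gave the spread behind both. Their p-values are therefore not independent of each other. The comparisons of the media below use the same libraries again.

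**Figure D2:**
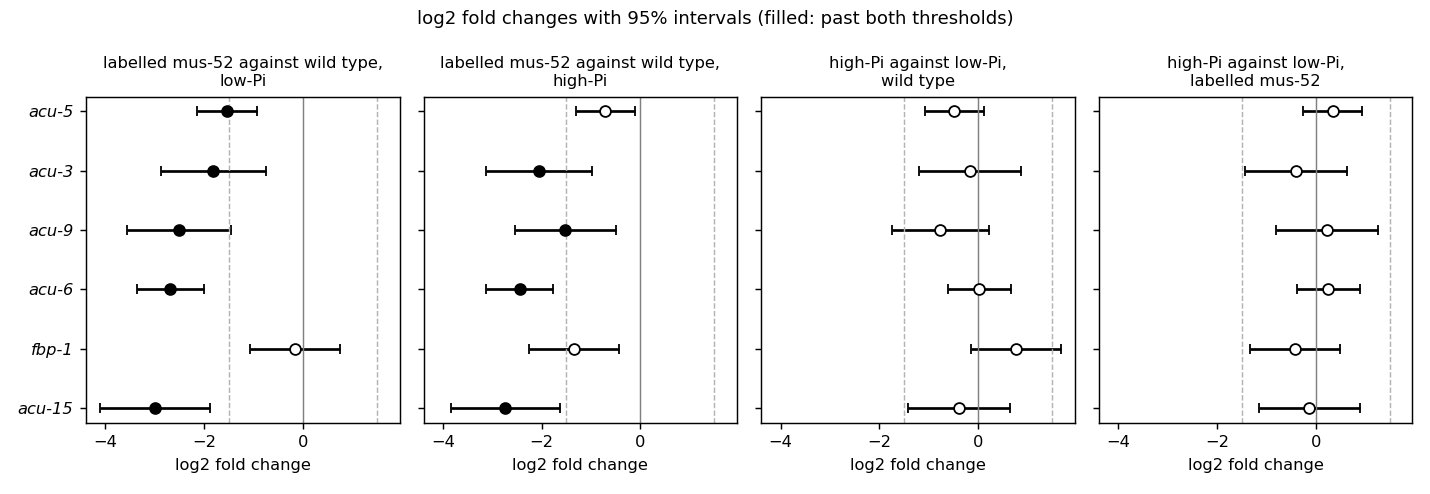
The log2 fold change of each gene with its 95% interval is drawn for the comparisons of the strains in each medium (left) and of the media in each strain (right), with dashed lines at the fold threshold of 1.5. Filled points, 5 in low-Pi and 4 in high-Pi, are past both thresholds, and no gene is filled in the comparisons of the media.

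Phosphate availability was the other variable of the study, and no difference between the media passed both thresholds for these genes. In the wild type, none of the 6 differed between high-Pi and low-Pi past both thresholds, and none had an unadjusted p under 0.05 with edgeR, where 0.219% of all genes passed both thresholds and 1030 had such a p. No gene passed with DESeq2 either. The log2 fold changes of high-Pi against low-Pi were −0.48 for *acu-5*, −0.15 for *acu-3*, −0.76 for *acu-9*, 0.02 for *acu-6*, 0.76 for *fbp-1* and −0.39 for *acu-15*, with adjusted p-values of 0.473 to 0.985 (edgeR). The 2 media overlapped for all 6 genes, while 12.7% of all genes tested did not overlap.

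These intervals were wide. That of *acu-3* ran from −1.19 to 0.88, that of *acu-9* from −1.75 to 0.23 and that of *fbp-1* from −0.15 to 1.67. A change of the size of the fold threshold is outside the first and inside those of *acu-9* and *fbp-1*. Without replicates I of the wild type, *acu-9* had a log2 fold change of −1.01 and *acu-5* of −0.37 (adjusted p = 0.0432 and 0.037, edgeR), both under the fold threshold, and *fbp-1* turned to −0.30 (adjusted p = 0.152, edgeR). That setting was chosen after seeing the data.

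In the libraries labelled *mus-52*, none of the 6 genes passed both thresholds between the media either, and none had an unadjusted p under 0.05, where 2.61% of all genes passed and 1284 had such a p. DESeq2 called none. *acu-5* was higher in all 3 high-Pi libraries than in all 3 low-Pi libraries (log2 fold change 0.34, adjusted p = 0.626, edgeR), and *fbp-1* was lower in all 3 (−0.42, adjusted p = 0.722, edgeR). Such separation was found for 46.5% of all genes in this comparison. The other 4 had values of −0.40 (*acu-3*), 0.22 (*acu-9*), 0.26 (*acu-6*) and −0.12 (*acu-15*). These p-values rest on a spread shared with the wild-type libraries. In a fit of only the 6 libraries labelled *mus-52*, *acu-5* had 0.35 and *fbp-1* −0.42 (adjusted p = 0.0155 and 0.0124, edgeR). The other 4 genes then had adjusted p-values of 0.128 to 0.539 (edgeR), and 272 of 7613 genes passed both thresholds. With replicate I left out of all 4 groups, *acu-3* had −0.43, *acu-5* 0.32 and *fbp-1* −0.47 (adjusted p = 0.0104, 0.0415 and 0.0227, edgeR). In both settings these were small changes that did not reach the fold threshold.

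The response to phosphate was also compared between the strains. None of the 6 genes passed both thresholds in this test of the interaction, and none had an unadjusted p under 0.05, where 4.26% of all genes passed and 1520 had such a p, and DESeq2 called none. The differences in log2 fold change, labelled *mus-52* minus wild type, were 0.82 for *acu-5* (adjusted p = 0.275, edgeR), 0.98 for *acu-9* (adjusted p = 0.448, edgeR) and −1.18 for *fbp-1* (adjusted p = 0.3, edgeR). Those of *acu-3*, *acu-6* and *acu-15* lay between −0.24 and 0.26. Without replicates I of the wild type the value of *fbp-1* was −0.10, that of *acu-9* was 1.26 (adjusted p = 0.0466, edgeR), and that of *acu-5* was 0.74 (adjusted p = 0.00214, edgeR). These values come from a setting chosen after seeing the data, and none reached the fold threshold.

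Within the wild type, the genes also differed between replicates, as given by the level of replicate I divided by the mean of II and III. In high-Pi this ratio was 0.215 for *acu-15*, 0.284 for *acu-3*, 0.433 for *acu-6*, 0.469 for *acu-5* and 0.705 for *acu-9*, but 3.46 for *fbp-1*. In low-Pi it was lowest for *acu-9* (0.287) and *acu-3* (0.377), 0.476 for *acu-15*, 0.652 for *fbp-1*, 0.680 for *acu-5* and 0.963 for *acu-6*. *acu-6* was thus low in replicate I of high-Pi and level with its fellow replicates in low-Pi, and *fbp-1* lay on opposite sides in the 2 media. In the libraries labelled *mus-52* the ratios of the 6 genes lay between 0.996 and 1.46.

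**Figure D3:**
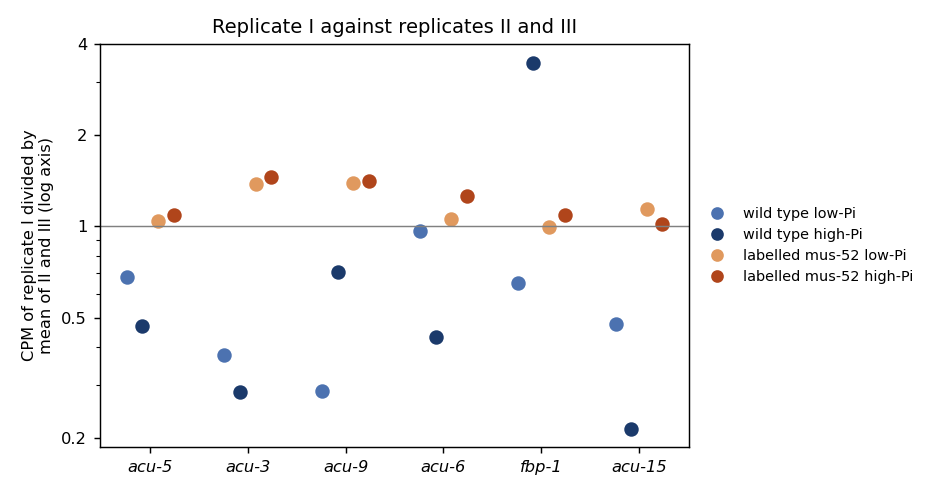
The CPM of replicate I divided by the mean CPM of replicates II and III of the same group is shown for each gene and group on a log axis, with a line at 1. The wild type is below 1 for all genes except *fbp-1* in high-Pi (3.46), and the libraries labelled *mus-52* lie between 0.996 and 1.46.

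Over the 12 libraries, the log2 CPM of the 5 *acu* genes had correlations with one another of 0.875 (*acu-9* and *acu-6*) to 0.966 (*acu-3* and *acu-15*). The points share the difference of the strains and the 2 wild-type replicates that stand apart, and other genes follow them more closely: for *acu-3*, *acu-15* was the gene with rank 92 in likeness. *fbp-1* had correlations of 0.0547 to 0.374 with the other 5 genes over the 12 libraries, and of 0.655 to 0.769 over the 8 libraries of replicates II and III.

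The genes outside the 6 whose pattern was most like each of them, by Pearson correlation of log2 CPM over the 12 libraries, were taken by rule, with 2 for each. They were NCU09220 and NCU10933 for *acu-3* (r = 0.992 for both), *tng* and NCU05876 for *acu-9* (0.964 and 0.963), and NCU04075 and NCU02499 for *acu-5* (0.991 and 0.986). NCU02623 and *pkac-2*, a catalytic subunit of protein kinase A, were most like *acu-6* (0.992 and 0.991), and NCU06968 and NCU02463 most like *acu-15* (0.995 and 0.994). For *fbp-1* they were *dak-1* and NCU16822 (0.943 and 0.936). Both had their highest level of all 12 libraries in replicate I of the wild type in high-Pi, at 93.4 and 312 CPM. *fbp-1* itself had 87.1 CPM there and 16.5 to 31.3 CPM elsewhere, so a choice by correlation favours genes with that peak.

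Genes of the adjoining steps were counted from a list of 34, made up of 5 genes of acetate handling and the tricarboxylic acid cycle, 8 of glycolysis steps, the carbon catabolite repressor gene *cre-1* and 20 peroxins, proteins that build and fill peroxisomes and glyoxysomes. Of these 32 were tested, and *pex11* and *pex24* were left out by the filter on low counts. Past both thresholds, 1 gene was lower under the *mus-52* label in low-Pi and 1 in high-Pi, the same gene in both, and none was higher, beside the 7.51% and 11.7% of all genes tested that were lower. This was *pex16* (NCU01850), a peroxin, with 112 ± 47.5 and 109 ± 32.6 CPM for low-Pi and high-Pi in the wild type and 34.2 ± 2.31 and 35.0 ± 3.99 CPM in the libraries labelled *mus-52* (SD, n = 3). Its log2 fold changes were −1.71 (SE 0.327, adjusted p = 0.00405, edgeR) and −1.64 (SE 0.326, adjusted p = 0.00333, edgeR).

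By adjusted p alone, 17 of the 32 were lower and none higher in low-Pi, beside 20.5% of all genes tested lower. These 17 were 10 of 18 peroxins, 4 of 8 genes of glycolysis steps and 3 of 5 of acetate handling and the tricarboxylic acid cycle, with *cre-1* not passing. In high-Pi 10 were lower and 1 higher, with 9 of 18 peroxins, 1 gene of glycolysis steps and none of the acetate group among the lower ones, beside 25.3% of all genes tested lower, so that 10 of 32 was close to that background. Some listed genes that passed have more than 1 annotated transcript and low counts, as *acu-9* has, so their levels are uncertain too. The 1 gene of glycolysis steps lower in high-Pi was among them, with 12 to 32 counts per library. The medians of the list were −0.74 in low-Pi and −0.47 in high-Pi. *acu-8*, a further gene named for acetate use and singled out after its values were seen, had −1.09 in low-Pi (adjusted p = 0.00607, edgeR) and −0.33 in high-Pi (adjusted p = 0.245, edgeR).

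Without replicates I of the wild type, a setting chosen after seeing the data, the counts of the list were higher. Between the strains, 5 genes were lower past both thresholds in low-Pi and 4 in high-Pi, with none higher. By adjusted p alone, 27 and 22 were lower and 1 and 3 higher. The shares of all genes lower were higher too in that setting, at 11.3% and 13.4% past both thresholds and 35.3% and 35.9% by adjusted p alone. None of the 32 genes passed both thresholds between the media of either strain or in the interaction. With all libraries, none passed there by adjusted p alone either. Without replicates I, 8 were lower in high-Pi of the wild type by adjusted p alone, beside 8.73% of all genes tested. In the interaction 11 were then higher and 2 lower by adjusted p alone, beside 13.4% of all genes lower. The share of all genes higher was not computed. No gene of the list had a log2 fold change between the strains as low as those of *acu-3*, *acu-6* or *acu-15* in the same medium.

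**Figure D4:**
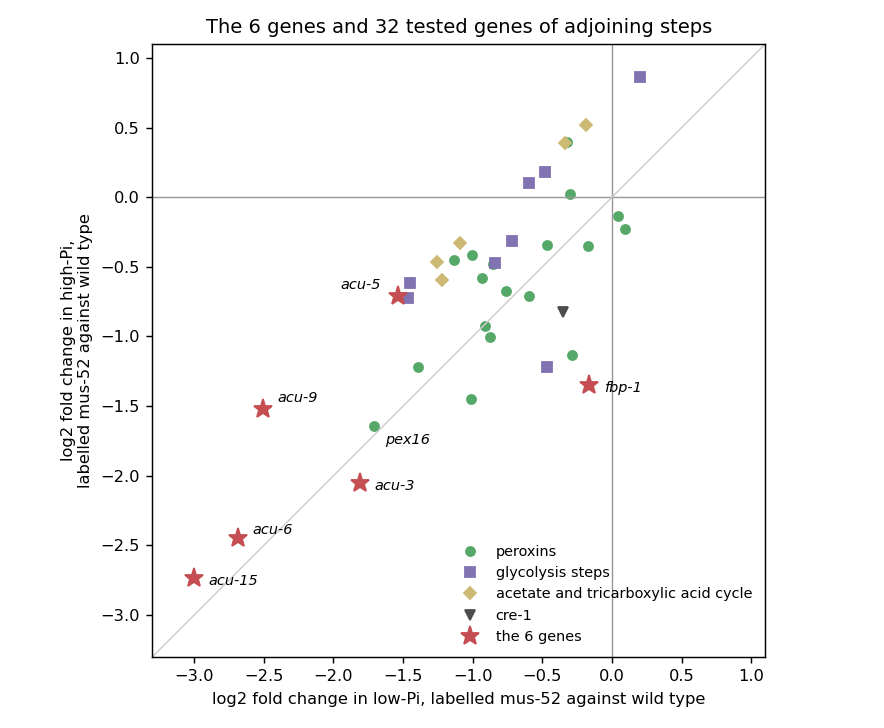
Each point is a gene, placed by its log2 fold change between the libraries labelled *mus-52* and the wild type in low-Pi (horizontal) and in high-Pi (vertical), with the diagonal as a line of equal change. *acu-15*, *acu-6*, *acu-3* and *acu-9* lie toward the lower left, beyond most of the 32 genes of adjoining steps, *acu-5* and *fbp-1* fell by 1.5 or more in at most 1 medium, and *pex16* is at −1.71 and −1.64.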

How the data were processed

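Reads per gene of 12 RNA-Seq libraries were analysed, 3 biological replicates for each strain and medium. The authors checked reads with FastQC 0.11.2, trimmed them, mapped them with Bowtie2 2.1.0 to NC12 and deposited raw counts per gene. How reads were counted, and whether strand or multiple mapping was considered, is not given in the sources used here. Deposited DESeq (1.28.0) output holds the authors' own comparisons (group means, fold changes and p-values) and was not used. Counts were tested with edgeR 4.0.16 (limma 3.58.1, R 4.3.3): TMM factors, the filterByExpr filter (7746 of 9730 genes), 1 quasi-likelihood fit of 4 groups with robust estimation, and Benjamini-Hochberg adjustment over all genes tested. A call needed an adjusted p no higher than 0.05 and a change no smaller than 1.5 on the log2 scale. The script was tested on simulated data. Log2 CPM used a prior count of 2. Levels per kb used the annotated gene span, where the coding length had been planned.

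A count of 0 allows 3 counts, or 0.0535 to 0.182 CPM, counting error only. Deviations of equal replicate numbers from their group means correlated at 0.357, 0.210 and 0.337 between the media of the wild type. The numbers may pair these libraries, but unequal numbers were not compared, so this is undecided. Equal numbers did not go together between the strains. P-values measure the spread between these libraries. The alternatives were DESeq2 1.42.0, RLE factors, no filter or at least 10 counts in every library, the 6 libraries of a comparison, the replicate block, that block on the wild-type libraries alone (chosen after seeing the data), the adjusted p alone, each library left out, replicate I left out of all groups and, chosen after seeing the data, replicates I of the wild type left out. The genes and lists were chosen with earlier results of these data known. Genes named besides the 6 were, for each, the 2 with the highest correlation, the listed genes past both thresholds (at most 4 in either direction of a comparison), *mus-52* and the *mat A* genes as checks of the labels, and the 4 conidial genes. Symbols and positions came from an NC12 table that matched 9729 gene IDs.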

Additional observations from a re-analysis of the deposited data

How the results depend on the processing

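Of 450 values of a fold change of the 6 genes under an alternative, 437 kept their direction or stayed uncalled, 11 lost and 2 gained a call, and no called value turned its sign. With 1 library left out, 3 to 5 genes were called between the strains in low-Pi (5 with all libraries) and 3 to 5 in high-Pi (4 with all), and 0 between the media or in the interaction. The calls lost in low-Pi were those of *acu-3* and *acu-5*, and *acu-3* also missed the threshold without replicate II or III labelled *mus-52*. Besides the single libraries, *acu-9* in high-Pi missed the fold threshold without a filter on low counts (−1.498) and with the replicate block (−1.49). The pathway list had 5 and 4 genes past both thresholds in low-Pi and high-Pi without replicates I of the wild type, against 1 and 1 with them, and 27 and 22 lower by adjusted p alone, against 17 and 10. The cause was not tested. Over all genes tested, 1034 were called between the strains in low-Pi, but 1846 without replicates I of the wild type, 1882 with replicate I left out of all groups, 671 to 1801 with 1 library left out and 2975 by adjusted p alone. In high-Pi these were 1475 and, by adjusted p alone, 3780. Between the media, the libraries labelled *mus-52* had 202 calls, 64 to 186 with 1 library left out and 365 by adjusted p alone. The interaction had 330 calls, and 191 to 335 with 1 library left out. The number called between the media of the wild type was 17, but 4 to 28 with 1 library left out, 37 by adjusted p alone, 58 with DESeq2, 60 without replicates I of the wild type, 58 with replicate I left out of all groups and 0 with only the 6 libraries, while none of the 6 genes was called in any of these.

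The replicate numbers were checked for pairing. Deviations of equal numbers correlated at 0.357, 0.210 and 0.337 between the media of the wild type, at 0.290, 0.0945 and 0.133 between those labelled *mus-52*, and at −0.157 to 0.0181 between strains. Equal numbers thus went together between the media of the wild type, less evenly between those labelled *mus-52* and not between the strains. Unequal numbers were not compared, and replicate I stood apart in both media of the wild type, so these values cannot show pairing. Within a group the deviations sum to 0, which ties the 3 values to one another. With the replicate block 5 genes were called in low-Pi, 3 in high-Pi and 0 in the other comparisons. A fit of the 6 wild-type libraries alone with this block, chosen after seeing the data, called 0 of the 6 genes between the media (adjusted p = 0.715 to 0.971, edgeR). Low counts limit *acu-9*, with 30 to 459 counts per library, more than the other genes, whose lowest count was 432.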

Other observations

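Ratios of counts within a library do not depend on the scaling between libraries, apart from gene length, and are given as values with no test. *acu-6* had 26.7 to 40.3 counts for each count of *fbp-1* in low-Pi of the wild type, and 36.9 and 46.1 in replicates II and III of high-Pi, but 5.14 in replicate I. In the libraries labelled *mus-52* the ratio was 4.18 to 6.31 in low-Pi and 7.36 to 9.32 in high-Pi, so that the enzymes at the start and near the end of gluconeogenesis were counted in other proportions than in 5 of the 6 libraries of the wild type. *acu-15* had 0.262 to 0.479 counts for each count of *acu-3* in the wild type and 0.154 to 0.273 in the libraries labelled *mus-52*.

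The ratio of *acu-6* to *gpd-1*, the glyceraldehyde-3-phosphate dehydrogenase gene of glycolysis, was 0.223 to 0.355 in all 6 libraries of the wild type, replicates I included, and 0.0424 to 0.0593 in the 6 libraries labelled *mus-52*. *gpd-1* was chosen after values were seen. Its own log2 fold change between the strains was −0.48 in low-Pi (adjusted p = 0.17, edgeR) and 0.18 in high-Pi (adjusted p = 0.595, edgeR).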
